A study of Mus musculus with 16 samples.

Results

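Tumours taken after 10 days of ADH-503 were compared with tumours taken after 48 h of the same drug, across all genes of a whole-transcriptome array. The comparison takes the samples whose time label gives 10 days or 48 h, 10 of the 16 samples in the series, 5 at each time; the other 6 came from vehicle-treated animals and serve as a background. ADH-503, which the sample titles call LA1, is a small molecule that activates CD11b, the alpha chain of a beta2 integrin carried by neutrophils, monocytes and macrophages. The 10 day group was tumour tissue from female C57BL/6 mice with an orthotopic pancreatic cancer, given ADH-503 and sampled at 10 days. The 48 h group was the same tissue from the same strain and sex, given ADH-503 and sampled at 48 h. The vehicle group matched both in strain, sex and tumour model, and its time label reads control, so the age of its tumours against either treated group is not known. The tumour line, its genotype and the animal behind each sample are not given in the sources used here, so p-values reflect only how much these samples vary, which may in part be technical. The age of the tumour may differ together with time on drug between 48 h and 10 days, and they cannot be told apart.

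CD11b pairs with the beta2 chain CD18 to form a receptor for ICAM-1 and complement fragments, and it governs how myeloid cells adhere, migrate and respond to Toll-like receptor signals. A pancreatic tumour grown in the pancreas holds malignant ductal cells, fibroblasts, myeloid cells and lymphocytes, and its edge adjoins acinar tissue, the part of the gland that secretes digestive enzymes. Whole tumour RNA mixes all of these, so that fewer cells of a type and less RNA per cell cannot be told apart in any value below. Of the 21 ductal and tumour epithelium markers tested, 19 were well above background on all 5 arrays of the 10 day group and 19 on all 5 of the 48 h group, among them the keratins Krt7, Krt8, Krt18 and Krt19.

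All values are log2 of the background-subtracted red signal minus the 75th percentile of the same array, so that 0 marks a probe as bright as that percentile, and all differences are 10 days minus 48 h on that log2 scale. Between 74.9% and 81.2% of probes were well above background on an array, and no spot was saturated. The arrays came from 2 slides, which were scanned separately. Slide 1 held 3 of the 10 day, 4 of the 48 h and 1 of the vehicle arrays, and slide 2 held 2, 1 and 5. Slide and time were therefore partly mixed, and a fit with slide as a block stands beside the results. The titles of 48 h replicate 5 and vehicle replicate 2 carry the same ID number, although their arrays correlated at r = 0.949 and only 5 of the 120 pairs of arrays correlated less; both were kept.

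No gene passed the threshold between 10 days and 48 h. Of 30570 genes tested, 0 (0%) had an adjusted p under 0.05 in limma, and the smallest adjusted p was 0.382. A model that also held slide passed 0 genes, and its smallest adjusted p was 0.520. At an unadjusted p under 0.05 there were 1062 genes (3.47%), 708 higher at 10 days (2.32%) and 354 lower (1.16%), and with the block 697 (2.28%) and 380 (1.24%). Slide 1 alone gave 1178 higher (3.85%) and 595 lower (1.95%). The excess of higher genes rested on 10 day replicate 1. Without that array 522 genes were higher and 619 lower, and 485 and 626 with the block. With each array's median subtracted in place of its 75th percentile, 630 were higher and 461 lower. The 2 groups did not overlap on any array for 154 genes (0.504%), of which 111 were higher at 10 days (0.363%) and 43 lower (0.141%). When only the 10 ADH-503 arrays were fitted, without vehicle, 3 genes passed, and those are described at the end. The median difference over all genes was 0.0049.

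The likeness of arrays within a time and between times covered the same range. Across genes, which are not independent replicates, pairs of 10 day arrays correlated at r = 0.951 to 0.971, pairs of 48 h arrays at 0.949 to 0.971, and pairs of 1 array of each at 0.954 to 0.971. The first principal components over all 16 arrays held 19.4%, 12.6% and 9.05% of the variance.

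The 12 genes with the smallest p that were higher at 10 days belong to none of the gene lists used here, and none passed adjustment (adjusted p = 0.382 to 0.9999). In 10 of the 12 the groups did not overlap, against 0.363% of all genes that were higher without overlap. In all 12 the vehicle mean lay between the means of both times. Choosing the 12 by p in this contrast favours both traits, so neither is support. Galr2, a receptor for the neuropeptide galanin, had the smallest p of them. It measured -3.71, -3.38, -3.37, -3.87 and -2.74 on the 10 day arrays and -6.83, -5.39, -4.87, -5.11 and -5.62 on the 48 h arrays, against a vehicle range of -6.27 to -4.44 with a median of -5.26. Every 10 day array was above every 48 h and every vehicle array. The difference was 2.15 ± 0.37 (SE), or 4.44-fold, with limma adjusted p = 0.382; the blocked fit gave 2.20 ± 0.38. Its probe lies on chromosome 11 from 116144714 to 116144773 (mm9) and was well above background on 5 of the 10 day and 4 of the 48 h arrays, so its level at 48 h was close to the limit of measurement.

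**Figure D1:**
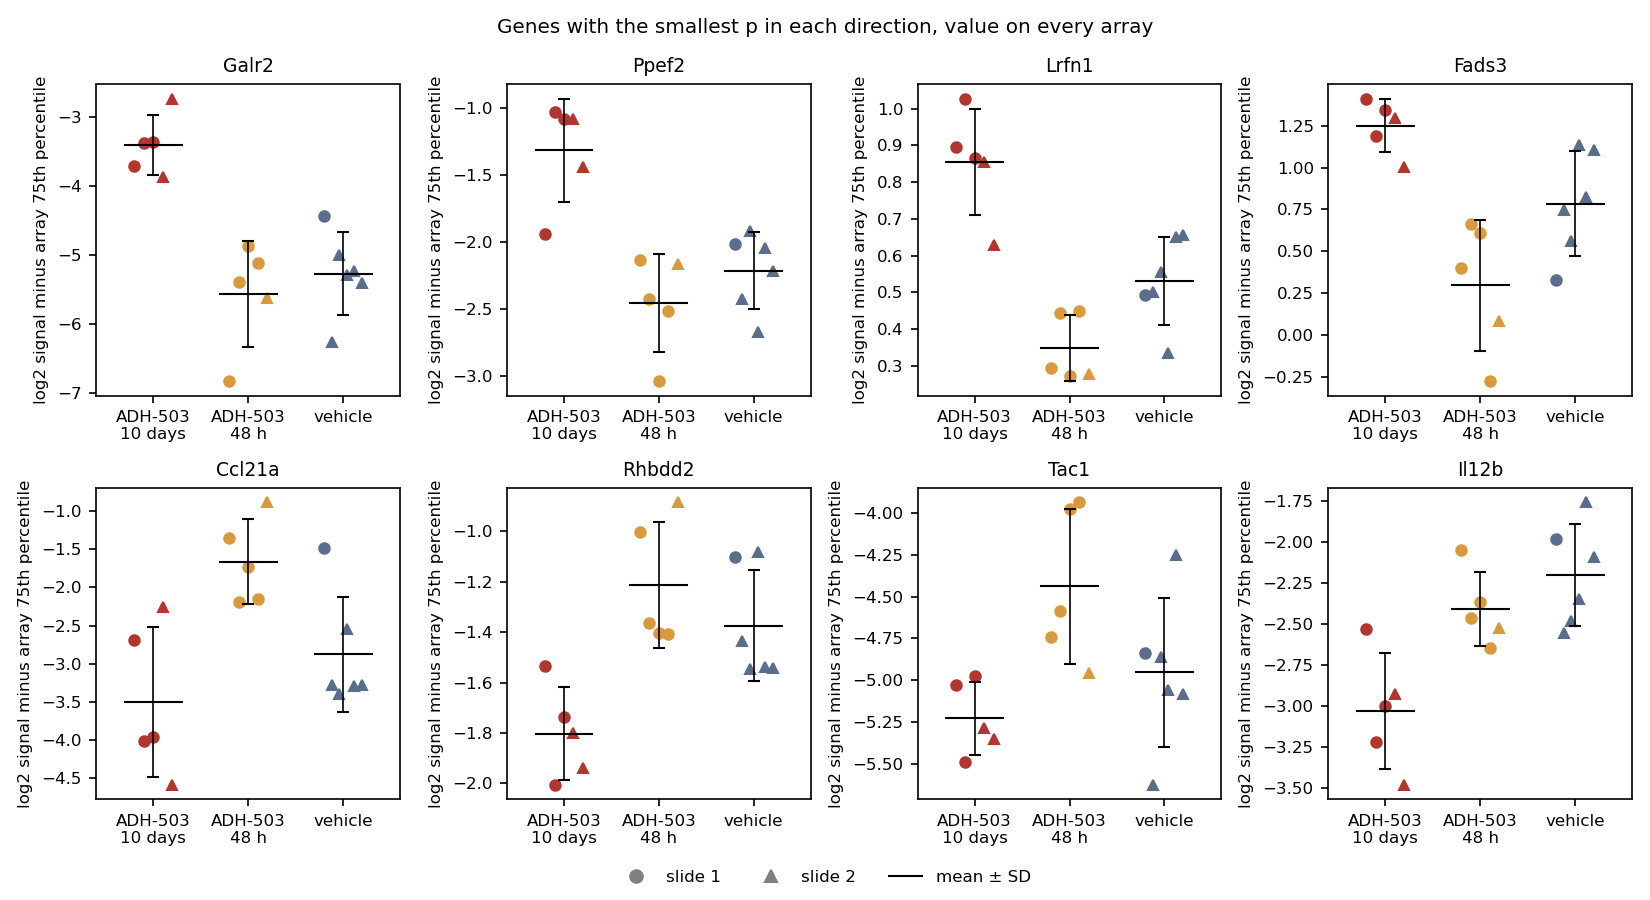
Each panel plots 1 gene on every array as log2 signal minus the array's 75th percentile, with 10 day, 48 h and vehicle arrays from left to right, circles for slide 1, triangles for slide 2, and the mean ± SD of each group. In Galr2, Ppef2, Lrfn1 and Fads3 every 10 day array lies above every 48 h array; in Ccl21a, Rhbdd2 and Tac1 every 10 day array lies below, and in Il12b the groups overlap.

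Ppef2, a calcium-binding protein phosphatase of photoreceptors, measured -1.94, -1.03, -1.08, -1.08 and -1.44 at 10 days and -2.13, -2.42, -3.04, -2.51 and -2.16 at 48 h. The groups did not overlap, and the difference was 1.14 ± 0.21 (SE; adjusted p = 0.464, limma). Lrfn1, a synaptic adhesion protein, measured 0.90, 1.03, 0.86, 0.85 and 0.63 at 10 days and 0.29, 0.44, 0.27, 0.45 and 0.28 at 48 h. The smallest gap between the groups was thus narrow, but the arrays of each time lay close together, and the difference was 0.51 ± 0.10 (SE). Gpr3, an orphan receptor that raises cyclic AMP, differed by 1.08 ± 0.21 (SE), and Fads3, a member of the fatty acid desaturase family, by 0.95 ± 0.19 (SE). Fads3 ran from 1.01 to 1.41 over the 10 day arrays and from -0.28 to 0.66 over the 48 h arrays. Psors1c2, a secreted protein of skin, differed by 1.83 ± 0.34 (SE), and 1 of its 10 day arrays, replicate 2 at -4.27, lay at the 48 h level.

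The rest of the 12 differed by less or with less certainty. Lrig1, which restrains EGF receptor signalling, differed by 1.01 ± 0.26 (SE), with 10 day arrays from -2.43 to -1.81 and 48 h arrays from -4.08 to -2.58. Cldn19, a tight junction claudin, differed by 1.01 ± 0.24 (SE), with 10 day and vehicle means of -4.21 and -4.23, while the 48 h arrays stood lower at -5.22 ± 0.56 (SD, n = 5), with 3 of them well above background. Hook2, a microtubule adaptor, differed by 0.47 ± 0.12 (SE), Spata45 by 0.97 ± 0.22 (SE) and BC065403 by 0.55 ± 0.14 (SE). Prickle4, of the planar cell polarity family, differed by 0.60 ± 0.14 (SE) on its brightest probe, and 1 of its 2 other probes had the opposite sign, at -0.26. With slide as a block the difference of each of the 12 kept its sign, at 0.921 to 1.04 times its size.

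The 12 genes lower at 10 days held 3 Reg lectins, 1 acinar amylase, 3 genes of chemokines and cytokines, and a neuropeptide precursor. None passed adjustment (adjusted p = 0.9999 for each in limma). The groups did not overlap in 3 of the 12, against 0.141% of all genes that were lower without overlap, and the choice by p favours this. Ccl21a, a chemokine that draws CCR7-bearing T cells and dendritic cells towards lymphatic vessels, measured -2.69, -4.01, -3.96, -2.26 and -4.59 at 10 days and -1.35, -2.20, -1.73, -2.16 and -0.88 at 48 h, against a vehicle range of -3.39 to -1.48 with a median of -3.27. The lowest 48 h array, at -2.20, was just above the highest 10 day array, at -2.26, and vehicle overlapped both. The difference was -1.84 ± 0.46 (SE), or 3.57-fold, and -1.80 ± 0.49 with slide as a block. The gene has near-identical copies on chromosome 4, whose transcripts this probe, from 42231835 to 42231894 (mm9), may share. The probe of 1 such copy, Gm13304, named after its values were seen, gave -1.30 ± 0.33 (SE) with groups that did not overlap either. Of the other lymphoid chemokine genes, Ccl19, the second CCR7 ligand, gave 0.22 ± 0.22 (SE), and Ccr7 itself -0.29 ± 0.21 (SE).

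Rhbdd2, a rhomboid-like membrane protein, differed by -0.59 ± 0.15 (SE) with no overlap, with 10 day arrays from -2.01 to -1.53 and 48 h arrays from -1.41 to -0.88. Its second probe, on another part of the gene, gave 0.20, the opposite sign. Tac1, the precursor of substance P, measured -5.03, -5.49, -4.98, -5.29 and -5.35 at 10 days and -4.74, -4.59, -3.98, -3.94 and -4.96 at 48 h. Its groups did not overlap, although only the step between -4.98 and -4.96 parted them, and the difference was -0.79 ± 0.24 (SE). Fitm2, needed for fat droplet formation, differed by -0.88 ± 0.25 (SE), Slc7a1, a transporter of arginine and lysine, by -0.39 ± 0.12 (SE), and Dph7, an enzyme of diphthamide synthesis, by -0.59 ± 0.19 (SE). Fitm2 was lowest on 10 day replicates 4, 1 and 5, at -3.71, -3.35 and -3.11, and its difference was -0.42 ± 0.21 (SE) with the acinar list's mean as a covariate.

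**Figure D2:**
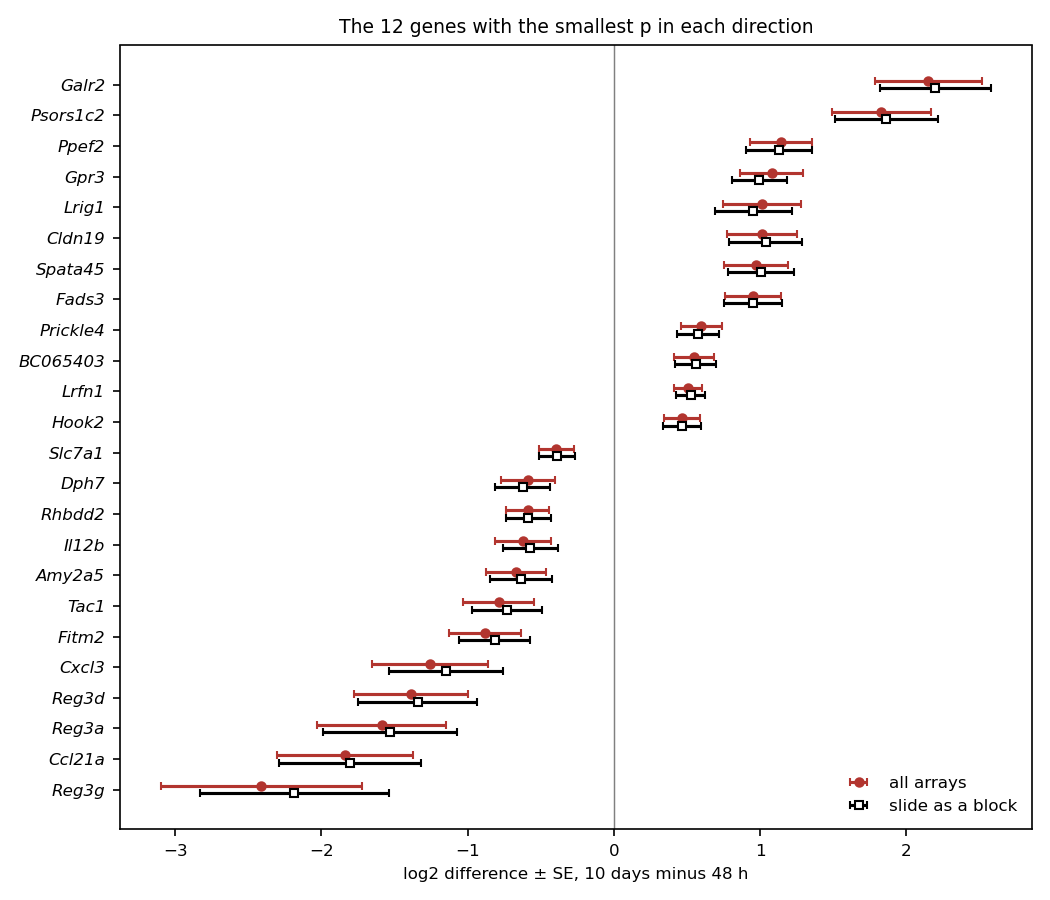
Points give the log2 difference, 10 days minus 48 h, with its SE, for the 12 genes with the smallest p in each direction, from the fit over all arrays (filled) and with slide as a block (open). Each gene keeps its sign with the block, and the largest differences are those of Galr2 at 2.15 and Reg3g at -2.41.

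Digestive enzyme genes of acinar cells were lower at 10 days than at 48 h on average. Over the list, the mean deviation was -0.42 at 10 days, 0.67 at 48 h and -0.20 in vehicle. At 10 days 3 of the 5 arrays were low, while all 48 h arrays were high. Of 31 acinar genes tested, 29 were lower at 10 days, against 48.9% of all genes, and 22 were lower at an unadjusted p under 0.05 (71.0% of the list, against 1.16% of all genes), with a list median of -1.15 against 0.0049 over all genes. With slide as a block 29 were lower and 16 at an unadjusted p under 0.05, with a median of -1.04. None passed adjustment over all genes, and the genes share their samples, so the 31 are not independent measurements. The list was chosen with earlier results of these data known.

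Cpb1, the proenzyme of carboxypeptidase B, measured -1.66, 0.81, 1.43, -1.76 and -1.95 at 10 days and 1.76, 1.11, 1.30, 0.29 and 1.63 at 48 h, against a vehicle range of -1.63 to 0.96 with a median of -0.07. The 10 day arrays were split: replicates 1, 4 and 5 lay below every 48 h array, and replicates 2 and 3 lay within their range. The difference was -1.85 ± 0.67 (SE; unadjusted p = 0.0150, adjusted p = 0.9999, limma), and -1.70 ± 0.68 with slide as a block. Cela3b, a pancreatic elastase, measured 0.90, 2.89, 3.04, 0.22 and 0.66 at 10 days and 3.21, 3.04, 2.82, 2.58 and 3.02 at 48 h, with the same split. Its difference was -1.39 ± 0.52 (SE). Rnase1, the secreted pancreatic ribonuclease, differed by -1.68 ± 0.63 (SE), and Cela3a, a close copy of Cela3b, by -1.57 ± 0.60 (SE). Amy2a5, a pancreatic amylase that is not on the acinar list, was among the 12 lower genes at -0.67 ± 0.20 (SE). The elastase, trypsin and amylase genes are families of near-identical copies, and probes may read more than 1 of them.

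The transcription factors that drive these enzymes gave values nearer 0, apart from Nr5a2: Ptf1a gave 0.06 ± 0.19 (SE), Rbpjl -0.10 ± 0.21 (SE) and Bhlha15 -0.02 ± 0.62 (SE). Bhlha15 was well above background on 4 arrays of each time. Nr5a2 gave -1.36 ± 1.15 (SE) and was well above background on 1 of the 10 day and 3 of the 48 h arrays.

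The acinar mean of each array, as the mean deviation from the 16-array average over the 31 genes, was -0.92, 0.45, 0.84, -1.33 and -1.13 at 10 days and 0.97, 0.50, 0.75, 0.26 and 0.84 at 48 h, against -1.23 to 0.67 with a median of -0.33 in vehicle. The 48 h arrays were all above 0.2, while 10 day arrays spread over the whole range that vehicle arrays covered and the groups overlapped. The spread was 0.99 at 10 days, 0.29 at 48 h and 0.69 in vehicle (SD, n = 5, 5 and 6). Side by side, and with the same vehicle arrays in both, the list median was -0.15 for 10 days minus vehicle and 0.89 for 48 h minus vehicle. Within slide 1 the 10 days minus 48 h median was -0.57, with 27 of 31 lower and 0 at an unadjusted p under 0.05, and within slide 2, where 48 h has 1 array, it was -2.14. Leaving out 10 day replicate 4 or 5 left 2 acinar genes at an unadjusted p under 0.05. How much acinar tissue each sample took in was not tested.

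**Figure D3:**
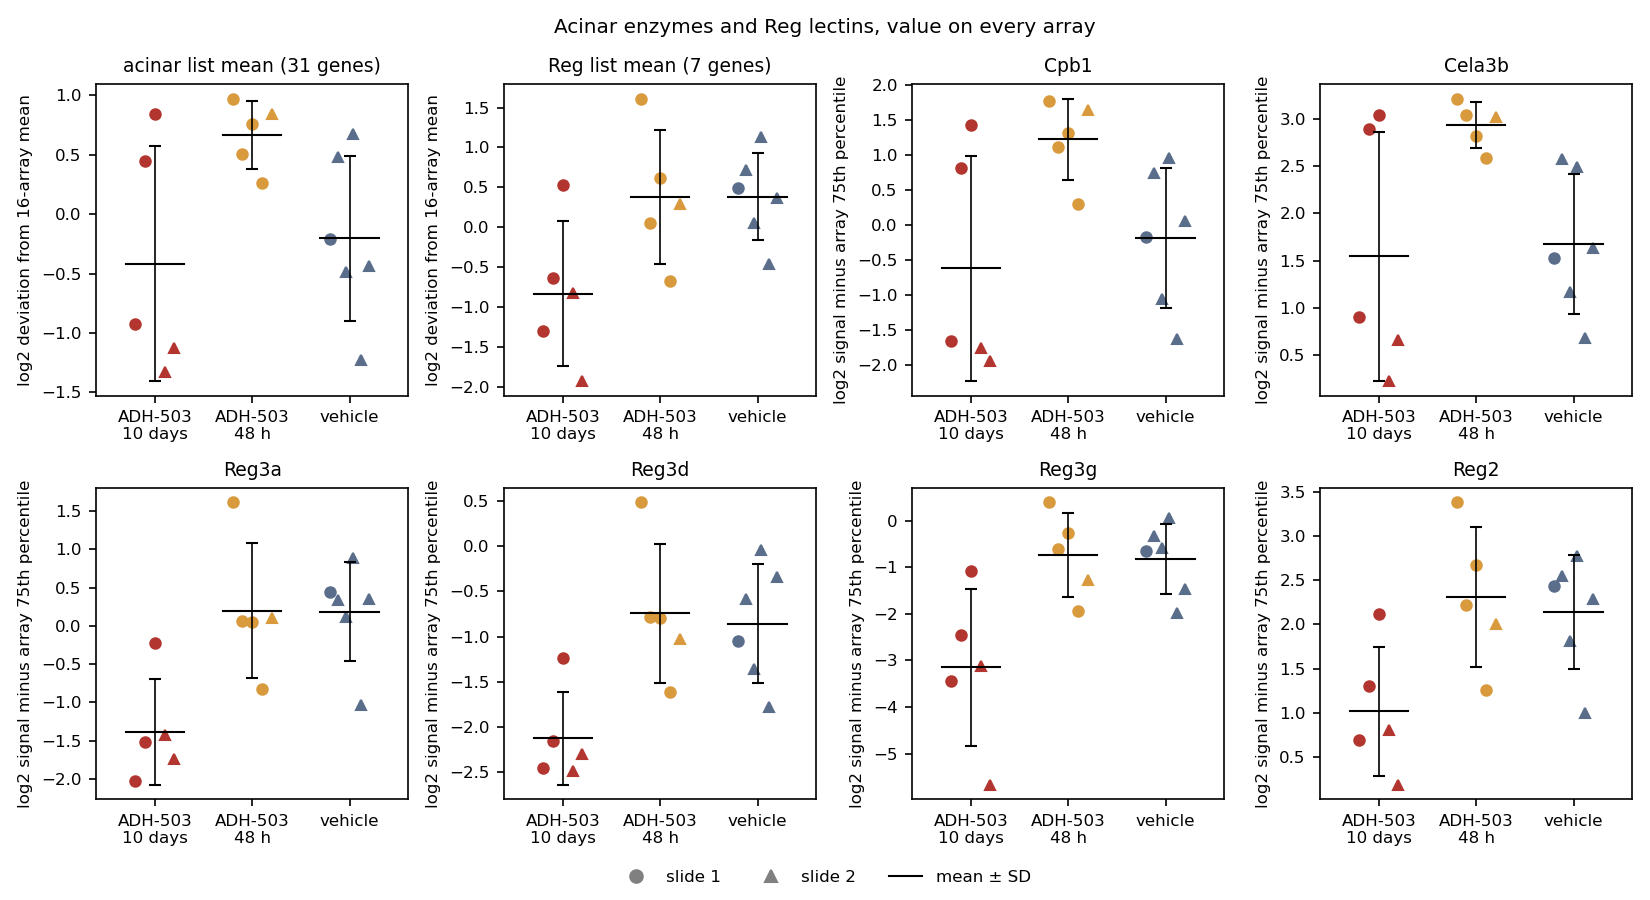
Points give every array, 10 day, 48 h and vehicle from left to right, with circles for slide 1, triangles for slide 2 and the mean ± SD of each group. The first 2 panels show the mean deviation over the acinar and Reg lists and the others log2 signal minus the 75th percentile of the array. Acinar values at 10 days fall into 2 arrays at the 48 h level and 3 below it, while 4 of 5 Reg3a values at 10 days lie below every 48 h value.

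The Reg genes encode small secreted lectins, made by acinar cells under stress and inflammation and, for Reg3b and Reg3g, by intestinal epithelium, where they kill bacteria. Of 7 tested, 6 were lower at 10 days and all 6 at an unadjusted p under 0.05 (85.7% of the list, against 1.16% of all genes); none passed adjustment. The list median was -1.39, or -1.34 in the blocked fit and -1.21 on slide 1 alone, where the acinar median was -0.57. Reg3a measured -2.03, -1.51, -0.23, -1.43 and -1.74 at 10 days and 1.62, 0.06, 0.05, -0.83 and 0.10 at 48 h, against a vehicle range of -1.03 to 0.89 with a median of 0.35. All 10 day arrays but replicate 3 lay below every 48 h array and every vehicle array. The difference was -1.59 ± 0.44 (SE; unadjusted p = 0.00267, limma), or 3.0-fold, and -1.53 ± 0.46 with slide as a block.

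Reg3d measured -2.45, -2.16, -1.24, -2.49 and -2.30 at 10 days and 0.49, -0.78, -0.79, -1.61 and -1.03 at 48 h, with a difference of -1.39 ± 0.39 (SE). Replicate 3 was again the high array at 10 days, and replicate 4 the low array at 48 h. Reg3g measured -3.44, -2.46, -1.07, -3.12 and -5.67 at 10 days and 0.40, -0.62, -0.27, -1.95 and -1.27 at 48 h, a difference of -2.41 ± 0.69 (SE), or 5.31-fold; its probe was well above background on 4 of the 10 day and 5 of the 48 h arrays. Reg2 differed by -1.29 ± 0.43 (SE) and Reg1 by -1.59 ± 0.59 (SE). Reg3b differed by -1.29 ± 0.50 (SE). Reg4, the only member of the 7 outside the cluster on chromosome 6, gave 1.07 ± 0.70 (SE), with 3 of the 10 day and 1 of the 48 h arrays well above background.

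The vehicle arrays give a further view of both lists. For 10 days minus vehicle and 48 h minus vehicle, which share the vehicle arrays, Reg3a gave -1.57 ± 0.42 and 0.01 ± 0.42 (SE), and Reg3g -2.33 ± 0.66 and 0.08 ± 0.66 (SE). Cpb1 gave -0.44 ± 0.64 and 1.41 ± 0.64 (SE) in the same order. For the Reg3 genes vehicle thus lay at the 48 h level, and for Cpb1 nearer the 10 day mean. With the acinar mean of each array as a covariate, a setting added after the values were seen, the Reg differences were smaller: -0.81 ± 0.40 (SE) for Reg3a, -0.69 ± 0.35 for Reg3d, -1.06 ± 0.55 for Reg3g and -0.19 ± 0.29 for Reg1, none at an unadjusted p under 0.05 in limma. With the same covariate Ccl21a stood at -1.94 ± 0.57 (SE) and Il12b at -0.74 ± 0.23 (SE).

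The promoters of the 2 genes of the acinar list with the smallest p and of the 3 Reg3 genes among the 12 are shown because the array values of these genes carry the acinar and Reg results. Each runs from 250 bases before to 50 bases after the gene's start in RefSeq on GRCm38.p6: Cpb1 at chr3:20275684-20275983 on the minus strand, Cela3b at chr4:137430471-137430770 on the minus strand, Reg3a at chr6:78380459-78380758 on the plus strand, Reg3d at chr6:78378816-78379115 on the minus strand and Reg3g at chr6:78468825-78469124 on the minus strand. Capitals mark CACCTG, a form of the E-box, TGGGAA, the box read by RBPJ and RBPJL, and TTCNNNGAA, a form of STAT site, on either strand. In the Reg3d promoter a STAT form overlaps a reversed TGGGAA.
Cpb1: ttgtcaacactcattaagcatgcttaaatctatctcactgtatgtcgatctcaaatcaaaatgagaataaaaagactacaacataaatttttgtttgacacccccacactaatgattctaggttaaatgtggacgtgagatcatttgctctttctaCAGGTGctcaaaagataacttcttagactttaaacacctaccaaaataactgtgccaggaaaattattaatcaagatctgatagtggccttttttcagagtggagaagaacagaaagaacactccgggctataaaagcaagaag
Cela3b: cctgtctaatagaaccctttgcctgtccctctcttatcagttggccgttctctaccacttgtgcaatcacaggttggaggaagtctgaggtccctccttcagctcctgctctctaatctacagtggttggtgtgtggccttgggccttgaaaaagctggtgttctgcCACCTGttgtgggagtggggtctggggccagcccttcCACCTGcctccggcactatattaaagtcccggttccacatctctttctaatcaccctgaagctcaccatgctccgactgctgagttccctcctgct
Reg3a: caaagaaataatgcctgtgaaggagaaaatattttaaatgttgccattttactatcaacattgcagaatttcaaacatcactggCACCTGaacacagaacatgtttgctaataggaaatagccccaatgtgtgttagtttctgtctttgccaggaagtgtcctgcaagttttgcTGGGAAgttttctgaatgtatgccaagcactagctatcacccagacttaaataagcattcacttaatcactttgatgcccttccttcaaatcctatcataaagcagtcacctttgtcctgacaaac
Reg3d: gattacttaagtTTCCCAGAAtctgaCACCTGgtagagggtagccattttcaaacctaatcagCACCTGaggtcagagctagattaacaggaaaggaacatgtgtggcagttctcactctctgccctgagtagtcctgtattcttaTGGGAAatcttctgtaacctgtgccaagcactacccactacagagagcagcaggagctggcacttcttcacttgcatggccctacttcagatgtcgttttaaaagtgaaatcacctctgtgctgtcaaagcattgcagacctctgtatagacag
Reg3g: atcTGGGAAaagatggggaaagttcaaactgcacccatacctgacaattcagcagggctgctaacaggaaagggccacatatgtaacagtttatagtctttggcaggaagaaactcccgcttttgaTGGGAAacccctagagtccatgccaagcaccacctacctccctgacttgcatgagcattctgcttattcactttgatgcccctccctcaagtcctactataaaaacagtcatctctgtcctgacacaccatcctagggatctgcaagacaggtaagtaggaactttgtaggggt

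CACCTG lay in 15 of 25 acinar genes with a RefSeq promoter and 5 of 7 Reg genes, against 20.2% of all 32851 promoters of the same length. TGGGAA lay in 15 of 25 and 5 of 7, against 25.6% of all, and TTCNNNGAA in 2 of 25 and 2 of 7, against 8.30%. A listed gene counted when any of its promoters held the motif, whereas the share over all counts single promoters, so they are unlike units. The listed genes also include near-identical copies. The start sites of Reg3a and Reg3d lie head to head, close to each other on chromosome 6, with Reg3g further along the same chromosome. A match of letters is a description and says nothing of binding.

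Of 21 ductal and tumour epithelium genes tested, 20 were lower at 10 days, with a median of -0.57, but 0 had an unadjusted p under 0.05. With slide as a block the median was -0.46, and within slide 1 it was 0.045 with 9 of 21 lower, so that its direction did not hold there. The list mean was 0.69, -0.40, 0.33, -1.02 and -1.37 at 10 days and 1.17, 0.36, 0.59, -1.19 and 0.18 at 48 h. Both groups spread widely and overlapped, and 10 day replicates 4 and 5 were low in the ductal as in the acinar list. Cdh1, E-cadherin, gave -0.50 ± 0.34 (SE), and Lcn2, an iron-binding lipocalin that neutrophils also make, -0.49 ± 0.37 (SE). Elf3, an epithelial transcription factor, gave -1.80 ± 1.25 (SE) with 2 of the 10 day and 4 of the 48 h arrays well above background. With the acinar mean as a covariate the ductal median was 0.15.

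Among 11 islet genes tested 6 were higher and 5 lower, with a median of 0.011. Insulin was high on 1 of the 10 day arrays, none of the 48 h arrays and 2 of the vehicle arrays. Ins1 measured -1.92, -1.46, 2.07, -2.33 and -2.64 at 10 days and -2.29, -2.58, -2.06, -1.73 and -2.22 at 48 h, and Ins2 measured -0.29, -0.57, 2.53, -0.78 and -1.28 and -0.56, -0.74, -0.67, -0.64 and -0.51. Vehicle arrays ran from -3.16 to 3.08 for Ins1 and from -0.81 to 3.33 for Ins2, with replicates 1 and 4 at 3.08 and 1.41 for Ins1 and at 3.33 and 1.75 for Ins2. Replicate 3 of the 10 day group stood apart from its group in both, and it was also the high array of the group for acinar and Reg genes. Pdx1, a factor of islet and duct precursors, gave -1.0 ± 0.82 (SE).

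The genes of the receptor that ADH-503 binds showed no difference beyond the spread of the arrays. Itgam, encoding CD11b, measured 5.11, 5.06, 5.14, 5.02 and 5.15 at 10 days and 4.98, 4.98, 5.0, 5.19 and 5.39 at 48 h, against 4.87 to 5.47 with a median of 5.04 on 5 vehicle arrays, the sixth having been marked an outlier spot. The difference was -0.01 ± 0.12 (SE; adjusted p = 0.9999, limma), which is within the spread of the groups and took either sign between settings. Its second probe gave -0.03. Itgb2, encoding CD18, measured 4.69, 4.91, 4.98, 4.94 and 5.10 at 10 days and 5.02, 5.06, 4.87, 5.10 and 5.07 at 48 h, a difference of -0.10 ± 0.11 (SE). The probes lie on chromosome 7 from 135261755 to 135261814 and on chromosome 10 from 77027978 to 77028037 (mm9). Of 16 genes of beta2 integrins, their ligands and activators, 11 were lower and 5 higher with a median of -0.024 and 0 at an unadjusted p under 0.05. Icam1, a ligand, gave 0.18 ± 0.15 (SE) and Itgax, encoding CD11c, -0.14 ± 0.17 (SE).

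Myeloid lists differed little. Macrophage markers had 18 of 23 lower with a median of -0.053, and 10 day array means between -0.06 and 0.09 against -0.01 to 0.17 at 48 h, which overlap. Cd14, a co-receptor for lipopolysaccharide, gave -0.36 ± 0.19 (SE), and Mertk, a receptor for dying cells, 0.13 ± 0.12 (SE). Monocyte markers had 8 of 10 lower with a median of -0.085, with Ly6c2 at -0.28 ± 0.20 (SE). For scale, 11 of 12 housekeeping genes, 19 of 20 ribosomal protein genes and 25 of 26 oxidative phosphorylation genes were also lower, with medians of -0.076, -0.078 and -0.10. Antigen presentation genes had 14 of 16 lower, with a median of -0.090.

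Genes of alternative and suppressive macrophages had 13 of 17 lower with a median of -0.11, and -0.024 with slide as a block. Cd274, encoding the checkpoint ligand PD-L1, measured -2.66, -2.66, -2.30, -2.35 and -1.88 at 10 days and -1.82, -2.19, -1.71, -2.25 and -2.08 at 48 h. Its groups overlapped through 10 day replicate 5, and the difference was -0.36 ± 0.16 (SE; unadjusted p = 0.0425), 1 gene of 17 against 1.16% of all genes. Ccl24, an eosinophil chemokine, gave -0.37 ± 0.18 (SE), and Arg1, which breaks down arginine, -0.46 ± 0.25 (SE). Both were lower within slide 1, at -0.66 each, and higher within slide 2, at 0.25 and 0.27.

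The neutrophil and mast cell lists had medians below 0 within slide 1 and above 0 within slide 2, where 48 h has 1 array. Other lists did likewise, among them the red cell, oxidative phosphorylation, hypoxia and unfolded protein response lists. Of 19 neutrophil genes 14 were lower, 1 at an unadjusted p under 0.05 against 1.16% of all genes, with a median of -0.12, which was -0.41 within slide 1 and 0.23 within slide 2. Ltf, lactoferrin of secondary granules, measured -1.62, -3.22, -3.47, -2.04 and -2.73 at 10 days and -1.42, -1.05, 0.45, -1.74 and -2.95 at 48 h. On slide 2, 48 h replicate 5 was the lowest of its group and below both 10 day arrays. The difference was -1.27 ± 0.56 (SE; unadjusted p = 0.0392), with -1.83 within slide 1 and 0.57 within slide 2. Camp, the cathelicidin precursor, gave -1.24 ± 0.66 (SE), and Mpo, of primary granules, 0.68 ± 0.44 (SE). Of 13 mast cell genes 9 were lower with a median of -0.46, and 2 at an unadjusted p under 0.05 (15.4% of the list, against 1.16% of all genes). Mcpt4, a chymase of connective tissue mast cells, measured -1.26, -3.01, -2.40, -1.57 and -1.09 at 10 days and 0.07, -0.22, -0.26, -1.25 and -1.50 at 48 h. The difference was -1.23 ± 0.44 (SE; unadjusted p = 0.0132), with -1.81 within slide 1 and 0.17 within slide 2. Tpsb2, a tryptase, gave -0.89 ± 0.38 (SE) and Mcpt1 -1.0 ± 0.48 (SE). Red cell genes had 10 of 13 lower with a median of -0.15, and medians against vehicle of -1.16 at 10 days and -0.75 at 48 h. Their list mean ran from -0.28 to 2.55 in vehicle, -1.26 to 0.03 at 10 days and -1.27 to 0.77 at 48 h, which overlap. Vehicle replicates 3, 4 and 5 were the high arrays, at 2.55, 1.30 and 0.99, and 5 vehicle arrays were on slide 2. Klf1, an erythroid transcription factor, gave 0.50 ± 0.30 (SE).

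Inflammatory cytokines were lower at 10 days in 15 of 19 cases with a median of -0.31, and 1 of the 19 had an unadjusted p under 0.05, against 1.16% of all genes. That was Il12b, the p40 subunit common to IL-12 and IL-23, which was also among the 12 lower genes. It measured -2.53, -3.22, -3.00, -2.93 and -3.48 at 10 days and -2.05, -2.47, -2.37, -2.65 and -2.53 at 48 h, against a vehicle range of -2.56 to -1.76 with a median of -2.22. The 10 day arrays were lower apart from replicate 1, which matched the 48 h arrays. The difference was -0.62 ± 0.19 (SE), and -0.57 ± 0.19 with slide as a block. Il23a, the p19 chain of IL-23, gave -0.57 ± 0.43 (SE). Il1a and Il1b, both interleukin-1 genes, gave -0.63 ± 0.39 and -0.19 ± 0.14 (SE), and Ptgs2, the inducible prostaglandin synthase, -0.32 ± 0.17 (SE). The blocked fit gave a list median of -0.18, and slide 1 alone -0.091.

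Chemokines of myeloid cells and of CXCR2 had 11 of 15 lower with a median of -0.081, but within slide 1 the median was 0.056 with 9 higher. Cxcl3, a neutrophil attractant that binds CXCR2, was the only one at an unadjusted p under 0.05 (1 of 15, against 1.16% of all genes) and among the 12 lower genes. It measured -3.09, -3.70, -4.98, -3.62 and -4.35 at 10 days and -2.76, -2.51, -1.83, -2.95 and -3.42 at 48 h, a difference of -1.26 ± 0.40 (SE). The groups overlapped through 48 h replicate 5, and Ccl4 gave -0.24 ± 0.20 (SE). Toll-like receptor and NF-kB feedback genes had 13 of 23 higher with a median of 0.021, but within slide 1 the median was -0.020 with 15 lower. Tnfaip3, an inhibitor of NF-kB, gave -0.25 ± 0.19 (SE). Complement genes had 14 of 19 lower with a median of -0.062, but within slide 1 the median was 0.11 with 11 higher. C7, a part of the membrane attack complex, was 1 of the 5 higher genes and the only one of the 19 at an unadjusted p under 0.05, against 2.32% of all genes, at 0.40 ± 0.12 (SE; unadjusted p = 0.00321). It had 10 day arrays of -2.23, -2.41, -2.50, -2.79 and -2.52 and 48 h arrays of -2.95, -2.81, -2.86, -3.18 and -2.69. Its difference was 0.57 within slide 1 and 0.03 within slide 2. Cfd, complement factor D, gave 0.37 ± 0.22 (SE) and C3 -0.23 ± 0.14 (SE).

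Lymphocyte lists had small medians with single lower genes. T cell genes had 12 of 19 lower with a median of -0.085, and 1 at an unadjusted p under 0.05, against 1.16% of all genes. Cd3g, a chain of the T cell receptor complex, measured -2.63, -3.30, -4.72, -2.67 and -2.57 at 10 days and -2.32, -2.98, -1.66, -2.74 and -2.27 at 48 h, a difference of -0.79 ± 0.36 (SE; unadjusted p = 0.0468). Much of it came from 10 day replicate 3, without which the difference was -0.40. Cd3d gave -0.51 ± 0.26 (SE). Cytotoxic lymphocyte genes had 10 of 17 lower with a median of -0.12, with Xcl1, a chemokine for XCR1-bearing dendritic cells, at -1.07 ± 0.56 (SE), granzyme A (Gzma) at -0.66 ± 0.42 (SE) and perforin (Prf1) at 0.25 ± 0.17 (SE). Regulatory T cell and checkpoint genes had 13 of 18 lower with a median of -0.13, and 2 at an unadjusted p under 0.05, against 1.16% of all genes. The list median was -0.25 within slide 1 and 0.11 within slide 2, where 48 h has 1 array. Ccr8, a receptor of regulatory T cells in tumours, gave -0.90 ± 0.42 (SE), with an unadjusted p = 0.0495 in limma. It stood at -1.22 within slide 1 and 0.21 within slide 2. The checkpoint receptor Tigit gave -0.66 ± 0.39 (SE), and Lag3, another, 0.70 ± 0.35 (SE). Dendritic cell genes had 10 of 16 higher with a median of 0.043, but within slide 1 the median was -0.097 with 11 lower. Within slide 2, where 48 h has 1 array, it was 0.23. Zbtb46, a factor of conventional dendritic cells, gave 0.37 ± 0.19 (SE).

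B and plasma cell markers had 11 of 17 lower with a median of -0.012, and none at an unadjusted p under 0.05, with Fcer2a, encoding CD23, at -0.41 ± 0.52 (SE). Within slide 1 their median was 0.14 with 12 higher, and within slide 2, where 48 h has 1 array, it was -1.08 with 17 lower. Of 214 immunoglobulin segment probes, a list assembled after values were seen, 163 were lower with a median of -0.34, and 16 (7.48%) at an unadjusted p under 0.05 against 1.16% of all genes. The mean over the segments was -0.69, 0.20, -0.74, -0.03 and 0.02 at 10 days and -0.88, -0.90, 1.18, 0.05 and 1.56 at 48 h. The 48 h arrays ran both below and above all 10 day arrays. Of 90 T cell receptor segments 54 were lower with a median of -0.075 and 6 at an unadjusted p under 0.05, against 1.16% of all genes.

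Most interferon target genes were slightly higher at 10 days. Of 25 type I interferon targets, 21 were higher at 10 days, against 51.1% of all genes, with a median of 0.12, and 1 had an unadjusted p under 0.05, against 2.32% of all genes. The blocked fit gave a median of 0.10, slide 1 alone 0.13 and slide 2 alone 0.046. The array means were -0.24, 0.36, 0.02, 0.13 and 0.11 at 10 days and -0.29, -0.34, 0.16, 0.01 and 0.01 at 48 h, against -0.81 to 0.55 in vehicle, so the groups overlapped widely. Mx2, an antiviral GTPase, measured -0.27, 0.10, -0.20, -0.43 and -0.33 at 10 days and -0.52, -0.16, -0.57, -1.26 and -1.24 at 48 h, a difference of 0.52 ± 0.24 (SE; unadjusted p = 0.0421). Rsad2, which encodes viperin, gave 0.43 ± 0.23 (SE), Ifit1 0.46 ± 0.29 (SE) and Stat2, a transducer of the interferon signal, 0.26 ± 0.15 (SE). Interferon-gamma targets had 12 of 17 higher with a median of 0.073. Gbp7, a guanylate-binding protein, went against its list at -0.35 ± 0.16 (SE; unadjusted p = 0.0455), while Ido1, which breaks down tryptophan, gave 0.32 ± 0.24 (SE) and Nlrc5, the activator of MHC class I genes, 0.19 ± 0.15 (SE). H2-DMb1, of class II peptide loading, gave -0.12 ± 0.10 (SE). With the acinar mean as a covariate the type I median was -0.019.

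**Figure D4:**
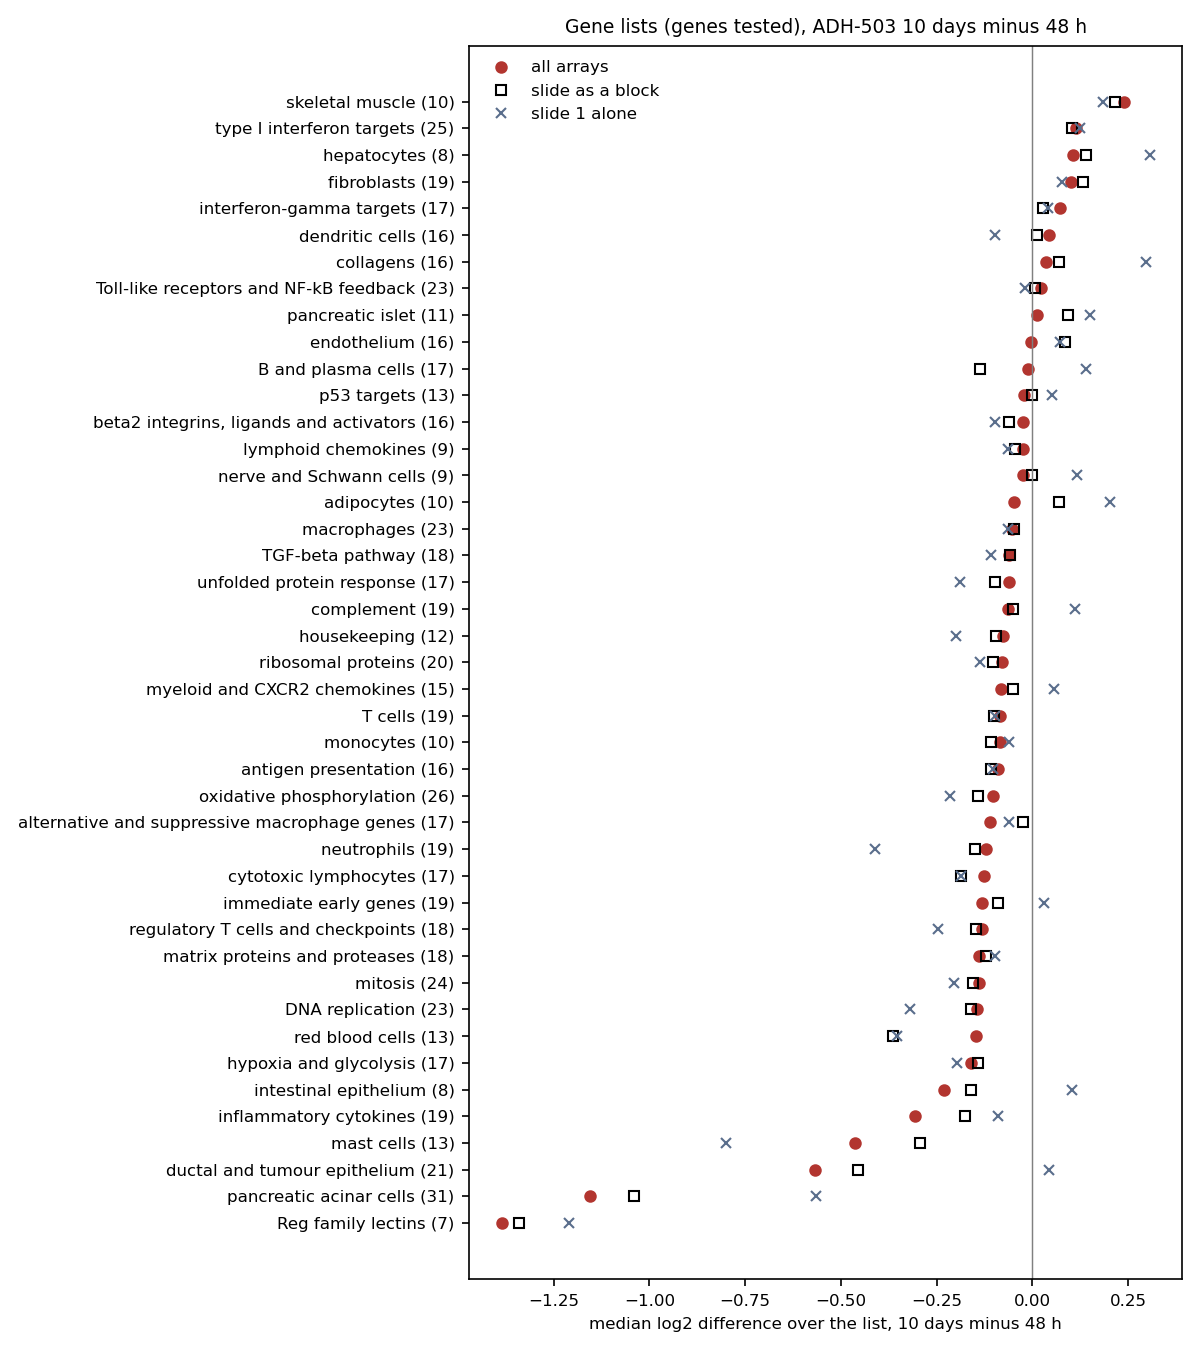
Each row is a gene list with its number of tested genes, ordered by the median log2 difference, 10 days minus 48 h, over all arrays (circles); squares give the median with slide as a block and crosses that of slide 1 alone. The Reg and acinar lists lie at -1.39 and -1.15, the ductal list at -0.57 over all arrays and 0.045 within slide 1, and most others near 0.

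Stromal lists had no common direction. Fibroblast genes had 12 of 19 higher with a median of 0.10, collagens 8 of 16 with 0.037 and endothelial genes 8 of 16 with -0.0034, none with a gene at an unadjusted p under 0.05. The collagens differed by slide. Within slide 1, 15 were higher and 1 lower, with a median of 0.30. Within slide 2, where 48 h has 1 array, 12 were lower, with a median of -0.44. Pdgfrb, a receptor of pericytes and fibroblasts, gave 1.53 ± 0.77 (SE); only 3 of its 48 h arrays were well above background, and it ran there from -8.04 to -3.40, against -5.22 to -3.35 at 10 days. Postn, a matricellular protein, gave 0.52 ± 0.32 (SE), Has1, a hyaluronan synthase, 0.53 ± 0.33 (SE), Col5a3 0.49 ± 0.27 (SE), Col8a1 1.45 ± 0.94 (SE) and Esam, an endothelial junction protein, 0.38 ± 0.31 (SE). Matrix proteins and proteases had 15 of 18 lower with a median of -0.14, with Timp1, an inhibitor of metalloproteinases, at -0.39 ± 0.19 (SE). TGF-beta pathway genes had 13 of 18 lower with a median of -0.060, with Inhba, which encodes activin A, at -0.87 ± 0.43 (SE).

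Of 24 mitosis genes 20 were lower with a median of -0.14 and 1 at an unadjusted p under 0.05, against 1.16% of all genes, and of 23 DNA replication genes 18 were lower with a median of -0.14 and 0 at that level. The housekeeping median was -0.076. Top2a, the topoisomerase of dividing cells, measured -1.47, -1.11, -0.73, -0.46 and -1.15 at 10 days and -0.28, -0.39, -0.71, -0.99 and -0.43 at 48 h, a difference of -0.42 ± 0.20 (SE; unadjusted p = 0.0487). Both groups overlapped, through 10 day replicates 3 and 4 and 48 h replicates 3 and 4. Bub1b, of the spindle checkpoint, gave -0.37 ± 0.22 (SE), Rrm1, a ribonucleotide reductase subunit, -0.29 ± 0.15 (SE), and Cdt1, which licenses replication origins, -0.32 ± 0.18 (SE). Within slide 1 the mitosis and replication medians were -0.21 and -0.32, and within slide 2 they were -0.049 and 0.088.

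Hypoxia and glycolysis genes had 14 of 17 lower with a median of -0.16, oxidative phosphorylation genes 25 of 26 with Atp5a1 at -0.20 ± 0.11 (SE), and ribosomal proteins 19 of 20 with Rps2 at -0.18 ± 0.12 (SE). Ywhaz, a housekeeping gene, gave -0.22 ± 0.12 (SE). Immediate early genes had 16 of 19 lower with a median of -0.13 but 0.031 within slide 1, with Atf3, a stress-induced factor, at -0.27 ± 0.14 (SE). Genes of the unfolded protein response had 12 of 17 lower with a median of -0.060. The p53 targets had 6 of 13 higher with a median of -0.022, and Bbc3, which encodes the cell death protein PUMA, gave 0.58 ± 0.23 (SE; unadjusted p = 0.0208) with overlapping groups.

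Tissue around the tumour could enter a sample, and its markers were counted for that reason. Skeletal muscle genes had 9 of 10 higher with a median of 0.24, with Tnnc2 at 0.36 ± 0.19 (SE) and Mylpf at 0.66 ± 0.39 (SE), and 0 at an unadjusted p under 0.05. Adipocyte genes had 5 of 10 higher with a median of -0.049 and Retn at 0.25 ± 0.15 (SE), and hepatocyte genes 6 of 8 higher with a median of 0.11 and Fgb at -0.82 ± 0.57 (SE). Nerve and Schwann cell genes had 3 of 9 higher with a median of -0.026, with Gfap, a glial filament, at 0.47 ± 0.20 (SE; unadjusted p = 0.0346). Intestinal epithelium genes had 5 of 8 lower with a median of -0.23, and 0.10 within slide 1, with Sis, the sucrase-isomaltase, at -0.49 ± 0.27 (SE). The part of these tissues in the differences above was not tested.

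The 3 genes that passed when only the 10 ADH-503 arrays were fitted were dim ones, named here after their values were seen. They met the filter on background only through 10 day and vehicle arrays, so their passing is no support for a change. None was well above background on any 48 h array, which leaves only a bound on the change. The bound takes the mean of all 5 arrays at 10 days, also any not well above background. It sets this against the lowest signal that counted as above background on each 48 h array, or the probe's own signal where that was higher. Dnaaf4, an assembly factor of ciliary dynein, measured -5.68, -4.06, -5.36, -4.27 and -4.19 at 10 days, 4 of them well above background, and was at least 2.12-fold higher there. Its group means were -4.71 ± 0.75 at 10 days and -7.96 ± 0.12 at 48 h (SD, n = 5 each), and 4 vehicle arrays were also above background. The 48 h mean and its small spread are those of values below background. The transcript BE945716 was at least 1.80-fold higher at 10 days and the RIKEN clone 2210414B05Rik at least 1.68-fold. In the fit with vehicle their adjusted p were 0.382, 0.382 and 0.9999, and vehicle arrays reached from the 48 h to the 10 day level for Dnaaf4, with a range of -7.59 to -4.02.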

How the data were processed

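The series holds 16 one-colour arrays (Agilent mouse 8x60K, Cy5) of amplified tumour cDNA, in 3 groups by the treatment and time labels. Per the submitters' processing notes the images were read with Agilent Feature Extraction 11.5.1.1, and the deposited scanner files hold red intensity per spot, of which the background-subtracted processed signal was used; probe positions are those of mm9 per the file headers. The authors also deposited a table of quantile-normalized log2 values for 56605 probes, used as an alternative. Control and outlier spots were left out, spots of a probe averaged, log2 taken and each array's 75th percentile subtracted. Of the probes of a gene the one with the highest mean over 16 arrays was kept, and 30570 of 36994 names with a probe well above background on at least 5 arrays were tested. Names came from the scanner files, updated through RefSeq (GRCm38.p6) by accession for 33898 probes and by symbol or synonym for 9949; 12758 kept the file's name.

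limma 3.58.1 (R 4.3.3) fitted 3 groups in 1 model with robust eBayes, two-sided p-values and Benjamini-Hochberg adjustment over all genes; the fit was tested on simulated data. The number of arrays, 5 against 5, limits the precision. Named genes are, in each direction, the 12 of lowest p whose reference name is neither predicted nor a RIKEN clone and whose probe exceeded background on 3 or more arrays at both times, plus Itgam, Itgb2 and up to 5 members per list by p; 4 further genes were chosen after their values were seen, and Reg3b and Reg4 complete a list. Some genes that the rule names are not reported here. Acinar transcription factors and list members given without a p were named for their role. Of 724 genes on the 43 lists, 698 were tested and 3 had no probe of that name. For the other 23 the kept probe was well above background on fewer than 5 arrays. Genes, lists and the comparison were chosen with earlier results of these data known, and lists got no test of their own. Alternatives covered slide, normalization, background correction, filters, moderation and each array left out.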

Additional observations from a re-analysis of the deposited data

Results flagged for a closer look

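In 15 of 306 groups of 5 or 6 arrays examined (4.90%), 1 array lay apart from the rest by Dixon's test. The groups share arrays, and many of their genes were chosen by p. The nominal rate of 1 in 20 is therefore no measure of how many to look for here. Insulin gave the widest gaps: on 10 day replicate 3, Ins1 stood at 2.07 with the nearest array at -1.46, and Ins2 at 2.53 with the nearest at -0.29. The same array was high for Reg3d, at -1.24 against -2.16. On 10 day replicate 1, Prickle4 stood high at -1.59 against -1.84, Mertk high at 3.42 against 2.97 and Rrm1 low at -1.30 against -0.72. Psors1c2 was low on 10 day replicate 2, at -4.27 against -3.01. On 10 day replicate 4, Il1b was low at 3.33 against 3.64 and Ccl4 low at 1.70 against 2.46. The mean over the matrix list was low on 10 day replicate 5, at -0.89 against -0.07. On 48 h replicate 3, Camp was high at 0.47 against -1.38, C3 at 3.26 against 2.76 and the macrophage mean at 0.17 against 0.04. On 48 h replicate 5, Ccl24 was low at 2.82 against 3.12. The clone 2210414B05Rik stood high on 48 h replicate 2, at -6.53 against -7.67.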

How the results depend on the processing

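No gene passed adjustment under any setting but the fit of the 10 ADH-503 arrays alone, with 3 genes. Within slide 1, 1178 genes were higher and 595 lower at an unadjusted p under 0.05. Leaving out each array in turn gave 522 to 1007 higher genes, and 485 to 1009 with slide as a block; the lower genes numbered 291 to 619, and 291 to 626 with the block, with 544 without 48 h replicate 4. The acinar count was 0 within slide 1, 0 with the acinar mean as a covariate, which holds the list itself, 2 to 25 with an array left out and 0 to 25 with the block as well (9 without 48 h replicate 3); it was 8 without 10 day replicate 1, 2 without replicate 4 or 5, and 11 without 48 h replicate 1. The Reg count was 2 within slide 1, 0 with the covariate and 4 to 6 with an array left out. Itgam took the opposite sign at 0.063 within slide 1, 0.024 in the deposited table, 0.023 after quantile normalization and 0.056 without the arrays that share an ID number; with an array left out it ran from -0.047 to 0.056, and with the block as well from -0.068 to 0.044. Ins2, at 0.54 over all arrays, ran from -0.11, without 10 day replicate 3, to 0.85 with an array left out, and stood at 0.87 with the block, 1.21 within slide 1, -0.52 within slide 2 and 1.62 with the covariate. Except where a value shows it, the cause was not tested. Settings added after values were seen were the covariate and the segment lists. No paired analysis was possible because replicate numbers were given in accession order and pair no samples. Dim probes limit the values of genes near background, and 5 arrays a group limit all of them.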
